A study of Mus musculus with 5 samples.

Results

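The CREB, CREM and CRTC pathway was followed here as 10 genes: the transcription factor genes *Creb1*, *Crem* and *Atf1*, the coactivator genes *Crtc1*, *Crtc2* and *Crtc3*, the acetyltransferase genes *Crebbp* and *Ep300*, the kinase gene *Sik1*, and *Creb3*, which encodes a membrane-bound relative of CREB. They were chosen by name as genes of the cAMP response, by a rule that uses no measured value but was set with earlier results of these data known, and all 10 were found among the 55411 genes of the count tables. The cells were olfactory sensory neurons (OSNs) that transcribe *Olfr151* (M71), an odorant receptor gene, and they came from the main olfactory epithelium of male mice homozygous for the *Olfr151* tm26Mom allele, in which an IRES-tau-GFP cassette marks the cells that transcribe the receptor. Mice were 7 weeks old and each was kept for 5 h either with 5% acetophenone in DMSO, an odorant that activates this receptor (exposed), or with DMSO alone (control), and live GFP-positive cells were then sorted. Each pool combined the cells of 4 mice, so that the spread between animals is not visible, and control pools 1, 2 and 3 and exposed pools 1 and 3 were available, whereas exposed pool 2 was not analysed here. The labels give 200 sorted cells per pool in one field and 400 in another, both for the same samples.

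In this pathway, odorant binding raises cAMP, which frees the catalytic subunits of protein kinase A (PKA) from their regulatory subunits. PKA, and in neurons also calcium-dependent kinases, phosphorylate CREB, the product of *Creb1*, and phosphorylated CREB binds the acetyltransferases CBP and p300, the products of *Crebbp* and *Ep300*. CRTC proteins are held in the cytoplasm while phosphorylated by salt-inducible kinases (SIKs), and they enter the nucleus when PKA restrains the SIKs or when calcineurin removes the phosphates. *Sik1* is itself a target gene of CREB, and *Crem* holds an internal promoter from which the repressor ICER is made. RNA counts bear on transcript levels and not on the phosphorylation or location of these proteins.

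Library totals lay between 42649403 and 49404293 counts without the ERCC spike-ins, so that 3 counts corresponded to 0.0607 to 0.0703 CPM, a count scaled to the library total. The spike-ins made up 0.631, 0.249 and 0.332% of all counts across control pools 1 to 3, against 0.542 and 0.306% for exposed pools 1 and 3. Scaling to them, used below as an alternative, carries this spread between pools of one condition into the levels of all genes. The reporter transcript had 316, 280.3 and 372 CPM across control pools 1 to 3, against 242 and 308 CPM for exposed pools 1 and 3, and the groups overlapped. Here and below, CPM of single genes are TMM-normalized, that is, scaled by edgeR's trimmed mean of M values. *Olfr151* had 3212, 3041 and 3596 CPM across control pools 1 to 3, against 2421 and 2327 CPM for exposed pools 1 and 3 and was lower in both exposed pools than in every control pool, with a difference that did not pass the test (edgeR quasi-likelihood test, log2 fold change -0.47 ± 0.12 SE, adjusted p = 0.101). Markers of mature OSNs were abundant in all pools, with a level summed over 12 genes of 75246, 84349 and 80542 TPM across control pools 1 to 3, against 62582 and 62536 TPM for exposed pools 1 and 3 (TPM being CPM corrected for exon length), and *Stoml3* was the most abundant of them. Of these 12 genes, 4 were called lower in exposed pools, namely the channel subunit genes *Cnga2* (-0.83 on the log2 scale), *Cnga4* (-0.53) and *Cngb1* (-0.91) and the receptor transport gene *Rtp1* (-1.07), where 1.85% of all tested genes were called lower. The fitted difference was below 0 for 10 of the 12, and both exposed pools lay below all control pools for 6, as for 19.6% of all genes. In pools of cells, a smaller share of one cell type and less RNA per cell cannot be told apart.

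Transcripts of other cell types were also counted, and they differed between pools within each condition. Sustentacular cell markers summed to 619.8, 445 and 201 TPM across control pools 1 to 3, against 608 and 267 TPM for exposed pools 1 and 3 over 7 genes, with *Cbr2* the most abundant. Myeloid markers summed to 367, 66.6 and 48.2 TPM across control pools 1 to 3, against 354 and 199 TPM for exposed pools 1 and 3 over 10 genes, with *Lyz2* the most abundant, and this sum overlapped between conditions. The 4 tested myeloid markers had a median log2 fold change of 2.31, all above 0, and both exposed pools lay above all control pools for 3 of them, *Fcer1g*, *Ptprc* and *Tyrobp*, as for 20.3% of all genes. These 3 reached the 140 counts that the test required in every library of a condition in exposed pools alone. *Fcer1g* had 241, 107 and 74 counts across control pools 1 to 3, against 776 and 851 counts for exposed pools 1 and 3, and was called higher (log2 fold change 2.63 ± 0.61 SE, adjusted p = 0.0807). *Ptprc* had 0, 54 and 1 counts across control pools 1 to 3, against 542 and 517 counts for exposed pools 1 and 3, and was called higher by DESeq2 but not by edgeR (adjusted p = 0.191). The 6 markers left untested, among them *Csf1r* and the C1q genes, overlapped between conditions. Haemoglobin and endothelial markers summed to 1328, 487 and 56.0 TPM across control pools 1 to 3, against 56.3 and 28.6 TPM for exposed pools 1 and 3 over 5 genes, with *Hbb-bs* the most abundant and the endothelial marker *Kdr* at 0 counts in all 5 pools. This sum was highest in control pool 1, and that of control pool 3 was close to that of exposed pool 1. Bowman gland and respiratory markers summed to 279, 345 and 336 TPM across control pools 1 to 3, against 201 and 221 TPM for exposed pools 1 and 3 over 5 genes, with *Tekt1* the most abundant. Markers of basal and progenitor cells summed to at most 4.11 TPM in any pool, with *Krt5* the most abundant, and those of olfactory ensheathing glia to at most 5.34 TPM, with *Fabp7* the most abundant and *Frzb* at 0 counts throughout. Immature neuron markers summed to 1342, 1483 and 1337 TPM across control pools 1 to 3, against 1434 and 1328 TPM for exposed pools 1 and 3 over 6 genes, with *Ncam1* the most abundant and *Gap43* called higher (log2 fold change 0.94 ± 0.22 SE, adjusted p = 0.0893). The fitted difference was above 0 for 5 of these 6 genes, with a median of 0.57 on the log2 scale, beside -0.03 over all genes. Both exposed pools lay above all control pools for 3 of them and below for 1, as for 20.3% and 19.6% of all genes. The call of *Gap43* stands beside 3.42% of all tested genes called higher. DESeq2 called 2 of the 6 higher and 1 lower, beside 6.67% and 7.11% of all genes. Control pool 1 and exposed pool 1 had the highest totals of their conditions for both sustentacular and myeloid markers, and the part of these cells in the results that follow was not tested.

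Per exon length, the 10 transcripts spanned more than 2 orders of magnitude in control pools, from *Creb3* at 114 ± 2.25 TPM (mean ± SD, n = 3) to *Crem* at 0.475 ± 0.449 TPM. *Crtc2* followed *Creb3* with 52.1 ± 0.965 TPM, and *Creb1* came next with 25.1 ± 4.02 TPM. *Crtc3* (15.3 ± 4.01 TPM) and *Crebbp* (12.9 ± 1.95 TPM) lay below *Creb1*, with ranges over the 3 pools that overlapped each other. *Atf1* (8.69 ± 2.27 TPM), *Ep300* (7.42 ± 1.84 TPM), *Crtc1* (5.94 ± 2.09 TPM) and *Sik1* (3.95 ± 1.91 TPM) followed, each overlapping the next of these 4 in range, and *Crem* (0.475 ± 0.449 TPM) lay below *Sik1* without overlap. In exposed pools, *Creb3* again had the highest level, 107 ± 8.15 TPM (n = 2), and *Crem* the lowest, 0.854 ± 1.14 TPM. *Creb3* alone made up 46.4% of the summed level of the 10 genes in control pools and 42.5% in exposed pools. On CPM, without the correction for exon length, these shares were 19.8% and 18.9%. *Creb1* then stood above *Creb3*, at 99.9 against 78.7 CPM in control pools and 103 against 83.1 CPM in exposed pools. By TPM, the largest move in rank below *Creb3* was that of *Sik1*, which stood ninth of 10 in control pools and second in exposed pools at 41.5 ± 17.3 TPM, with a range that overlapped that of *Crtc2* (38.3 ± 6.11 TPM). In exposed pools, *Atf1*, *Crebbp*, *Crtc3*, *Crtc1* and *Ep300* followed *Creb1* in this order, which is not their order in control pools, and each overlapped the next of these 5 in range. Set against all genes tested, the mean level of *Sik1* moved from percentile 7.84 to percentile 67.7, whereas *Creb1* stayed at the middle of the distribution, at percentiles 50.0 and 52.0.

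**Figure D1:**
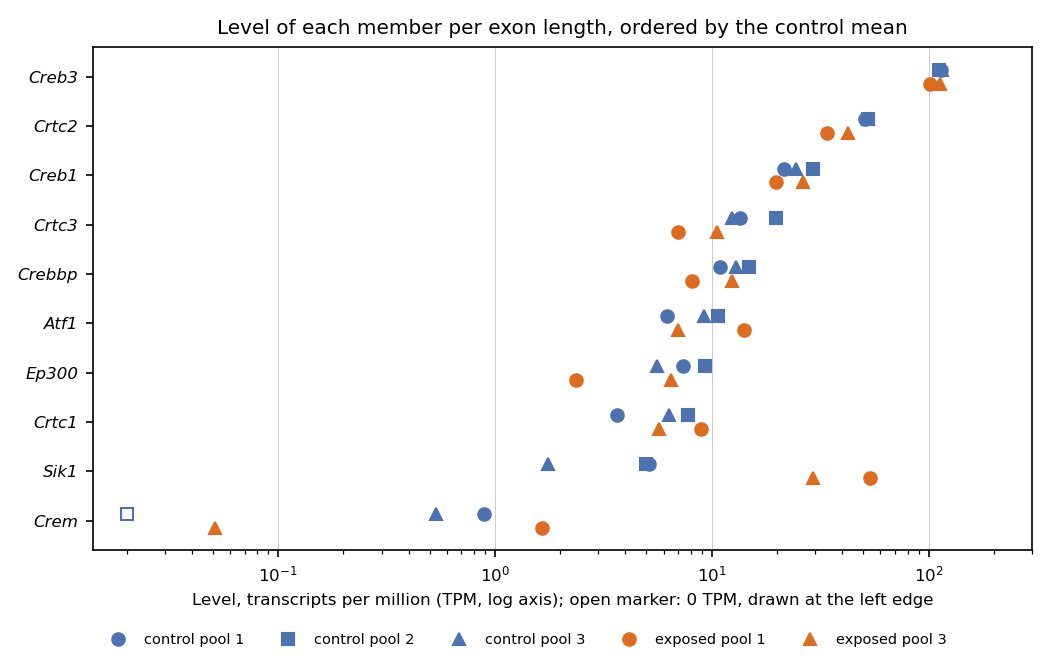
Level of each of the 10 genes in each pool, in TPM on a log axis, with genes ordered from top to bottom by their control mean. Blue markers are the 3 control pools and orange markers the 2 exposed pools, and *Sik1* is the only gene of the 10 whose exposed pools (29.3 and 53.8 TPM) lie far to the right of its control pools (1.75 to 5.13 TPM).

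The comparison of exposed with control pools asked which transcripts of the pathway differ after 5 h of odorant. *Sik1* was 11.8-fold higher in exposed pools, and it was the only member that passed the test. The other 8 members tested differed by at most 0.64 on the log2 scale and none of them was called, the factor gene *Creb1* and the genes of CBP and p300 included. *Crem* was too low to be tested. Genes were called at an adjusted p under 0.1 (Benjamini-Hochberg, edgeR quasi-likelihood test over 10055 genes) and an absolute log2 fold change above 0.5. *Sik1* reached the 140 counts in every library of a condition in exposed pools alone, and the other 8 reached them in control pools too. Thus 1 of 9 tested members was called higher and 0 of 9 lower, where 3.42% and 1.85% of all tested genes were called in these directions, and the median log2 fold change was 0.05 over the members and -0.03 over all genes. Of the 8 members that reached the 140 counts in control pools, 0 were called higher and 0 lower, beside 3.12% and 1.98% of all genes that did. Among the members left uncalled, 0 had an unadjusted p under 0.05, and DESeq2 with apeglm shrinkage called the same single gene, beside backgrounds of 6.67% higher and 7.11% lower. Both exposed pools lay above all control pools for 1 member, *Sik1*, and below all of them for 2, *Crtc2* and *Crtc3*, and this was so for 20.3% and 19.6% of all tested genes. The number of calls over all tested genes itself moved when a pool was left out, from 344 higher and 186 lower to 320 and 171 without control pool 1 (of 10226 tested), 160 and 64 without control pool 2 (of 10189), 348 and 429 without control pool 3 (of 10276), 93 and 19 without exposed pool 1 (of 10432) and 109 and 78 without exposed pool 3 (of 10599). Scaling to the ERCC spike-ins in place of TMM moved the median of all tested genes to -0.23 on the log2 scale and turned the small differences of *Creb1* (-0.16) and *Creb3* (-0.093) below 0, while *Sik1* was still called (3.29, adjusted p = 0.00505).

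**Figure D2:**
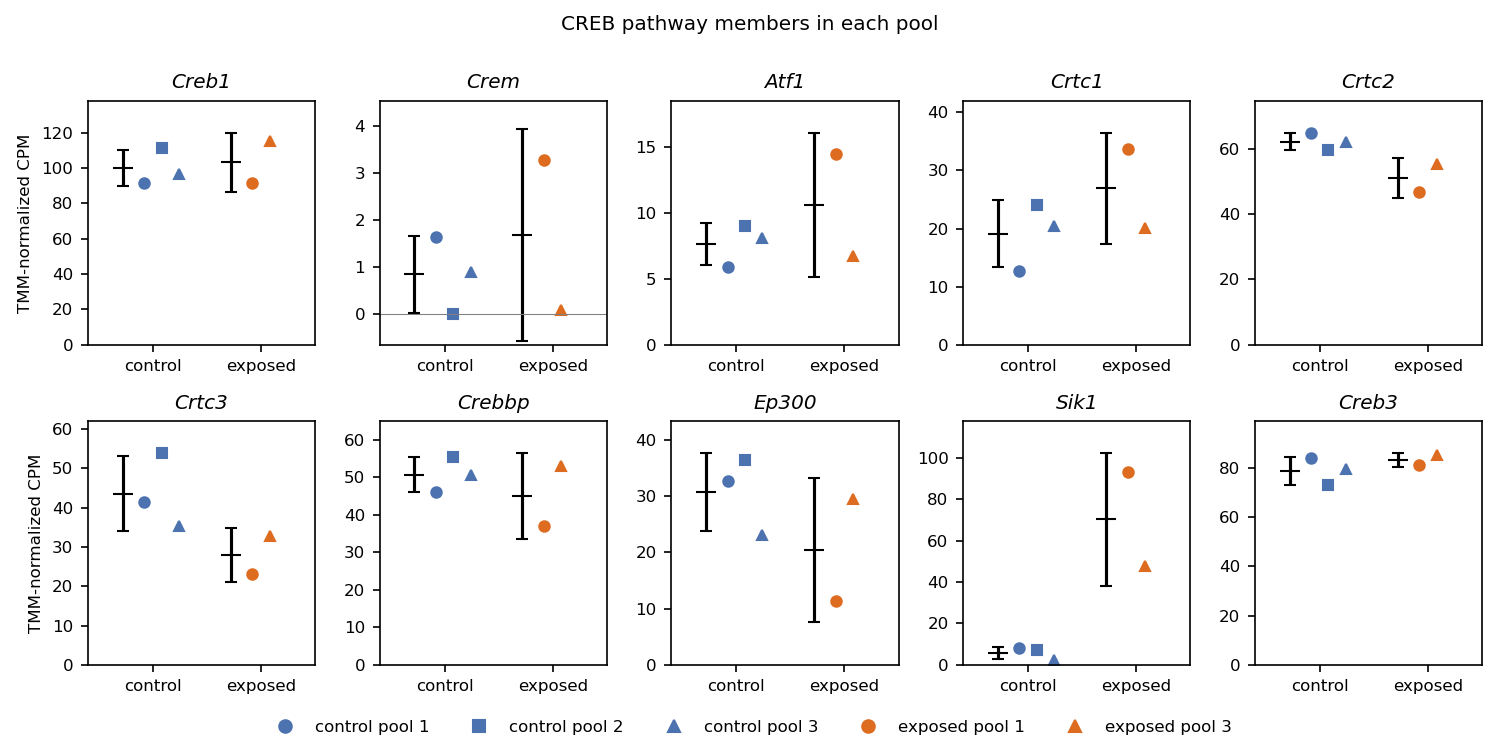
TMM-normalized CPM of each of the 10 genes in the 3 control pools (blue) and the 2 exposed pools (orange), with the mean and SD of each condition in black to the left of its points, on linear axes that differ between panels. *Sik1* rises from 2.60 to 8.19 CPM in control pools to 47.6 and 92.9 CPM in exposed pools, and *Crtc2* and *Crtc3* are lower in both exposed pools without passing the test.

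*Creb1* (ENSMUSG00000025958) had 91.5, 111 and 96.8 CPM across control pools 1 to 3, against 91.5 and 115 CPM for exposed pools 1 and 3. The exposed pools spanned nearly the same range as the control pools, and the fitted difference was small. *Creb1* differed by 0.05 ± 0.20 SE on the log2 scale (adjusted p = 0.925). *Atf1* (ENSMUSG00000023027), whose product pairs with CREB and binds the same element, had 5.91, 9.01 and 8.09 CPM across control pools 1 to 3, against 14.5 and 6.77 CPM for exposed pools 1 and 3. Exposed pool 1 was the highest of the 5 and exposed pool 3 lay within the control range, so that the groups overlapped. *Atf1* differed by 0.47 ± 0.49 SE on the log2 scale (adjusted p = 0.652). Without exposed pool 1 the difference of *Atf1* turned to -0.19 on the log2 scale. *Crem* (ENSMUSG00000063889) had only 71, 0 and 42 counts across control pools 1 to 3, against 141 and 4 counts for exposed pools 1 and 3, and did not reach the 140 counts in every library of a condition that the test required. Its counts varied as widely within a condition as between conditions, and the 0 in control pool 2 allows up to 0.0607 CPM by counting error alone. Fitted without the filter, its difference had an SE larger than itself (1.02 ± 2.12 SE on the log2 scale, adjusted p = 0.871). The counts are summed over the exons of a gene, so transcripts that encode ICER and other CREM proteins were not separated, and 472 of the 5895 exon bases of *Crem* overlap a gene on the other strand. Summed over the 3 factor genes, the level was 28.6, 40.1 and 34.1 TPM across control pools 1 to 3, against 35.5 and 33.5 TPM for exposed pools 1 and 3. *Crem* made up 3.12% or less of this sum in control pools, and 4.67% and 0.153% in exposed pools 1 and 3.

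Of the 10 members, 7 had promoter windows in the RefSeq table for GRCm38.p6, and *Crem*, *Crtc2* and *Sik1* were not searched. Each window was of 300 bases, from 250 before to 50 after a transcript start. These windows were searched for the cAMP response element TGACGTCA and for its short form TGACG on either strand (CGTCA on the other), where a full element holds a short form on each strand. Of all 32851 windows in the table, 1.79% held the full element and 20.8% a short form. *Atf1* was the only one of the 7 with a match, a short form whose first base lies 90 bases before the start. Its window (chr15:100227609-100227908, plus strand), printed 5′ to 3′ with the short form in capitals, is the one of the 7 in which these letters occur:
Atf1: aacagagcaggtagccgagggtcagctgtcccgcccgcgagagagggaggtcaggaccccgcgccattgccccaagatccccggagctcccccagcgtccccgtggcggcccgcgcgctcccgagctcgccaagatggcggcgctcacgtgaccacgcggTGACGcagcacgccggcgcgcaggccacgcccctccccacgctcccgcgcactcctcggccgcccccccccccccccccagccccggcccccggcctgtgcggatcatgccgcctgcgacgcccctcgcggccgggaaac

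None of the 3 CRTC coactivator genes was called, and their fitted differences did not share a sign. *Crtc2* (ENSMUSG00000027936), the most abundant of them, had 64.9, 59.5 and 62.0 CPM across control pools 1 to 3, against 46.8 and 55.3 CPM for exposed pools 1 and 3. Both exposed pools were below every control pool, by a margin that the test did not resolve. *Crtc2* differed by -0.28 ± 0.21 SE on the log2 scale (adjusted p = 0.515). *Crtc3* (ENSMUSG00000030527) had 41.5, 53.9 and 35.3 CPM across control pools 1 to 3, against 23.1 and 32.9 CPM for exposed pools 1 and 3, also with both exposed pools below all control pools, and its unadjusted p of 0.0784 was the smallest of the uncalled members. *Crtc3* differed by -0.64 ± 0.31 SE on the log2 scale (adjusted p = 0.320). *Crtc1* (ENSMUSG00000003575), the member of the family best known from neurons, had 12.7, 24.0 and 20.5 CPM across control pools 1 to 3, against 33.7 and 20.2 CPM for exposed pools 1 and 3, and the groups overlapped. *Crtc1* differed by 0.50 ± 0.40 SE on the log2 scale (adjusted p = 0.545). Summed over the 3 genes, the level was 68.2, 80.4 and 71.3 TPM across control pools 1 to 3, against 49.9 and 58.8 TPM for exposed pools 1 and 3, lower in both exposed pools than in any control pool. *Crtc2* accounted for 71.3% ± 4.99 (SD, n = 3) of the sum in control pools and 70.3% ± 3.08 (n = 2) in exposed pools. *Crtc1* held 5.37, 9.69 and 8.90% across control pools 1 to 3, against 17.9 and 9.67% for exposed pools 1 and 3, highest in exposed pool 1.

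*Crebbp* (ENSMUSG00000022521), which encodes CBP, had 46.0, 55.3 and 50.6 CPM across control pools 1 to 3, against 36.9 and 53.1 CPM for exposed pools 1 and 3, and exposed pool 3 lay within the control range. *Crebbp* differed by -0.17 ± 0.26 SE on the log2 scale (adjusted p = 0.763). *Ep300* (ENSMUSG00000055024), which encodes p300, had 32.7, 36.5 and 23.0 CPM across control pools 1 to 3, against 11.4 and 29.4 CPM for exposed pools 1 and 3. Exposed pool 1 was the lowest of the 5 pools, while exposed pool 3 lay among the control pools, so the 2 exposed pools differed from each other more than the conditions did. *Ep300* differed by -0.59 ± 0.46 SE on the log2 scale (adjusted p = 0.531). With exposed pool 1 left out, the log2 fold change of *Ep300* was -0.07, and with exposed pool 3 left out it was -1.46. *Crebbp* was above *Ep300* per exon length in every pool, by ratios of 1.48 to 2.31 in control pools, 3.42 in exposed pool 1 and 1.90 in exposed pool 3.

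*Creb3* (ENSMUSG00000028466), a factor anchored in the membrane of the endoplasmic reticulum and released by cleavage, was the most even of the members. It had 83.9, 72.8 and 79.3 CPM across control pools 1 to 3, against 81.1 and 85.1 CPM for exposed pools 1 and 3, and the fitted difference was the second smallest of the 9. *Creb3* differed by 0.08 ± 0.19 SE on the log2 scale (adjusted p = 0.853). A stretch of 360 of its 2372 exon bases overlaps *Tln1* and 133 bases overlap *Gba2*, both on the other strand, and reads that overlapped several genes were not counted.

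*Sik1* (ENSMUSG00000024042, GRCm38 chromosome 17, 31844250 to 31855804, minus strand) encodes salt-inducible kinase 1, which phosphorylates CRTC proteins. It had 356, 347 and 120 counts across control pools 1 to 3, against 3984 and 1992 counts for exposed pools 1 and 3. After TMM normalization it had 5.93 ± 2.95 CPM (SD, n = 3) in control pools and 70.3 ± 32.0 CPM (n = 2) in exposed pools. The lowest exposed pool was still more than 5 times the highest control pool, although each condition was itself spread, with control pool 3 and exposed pool 3 the lowest of their groups. The fitted difference was 3.56 ± 0.55 SE on the log2 scale, or 11.8-fold, with an adjusted p of 0.0267 (edgeR quasi-likelihood test). With each pool left out in turn it ranged from 2.99 to 3.94 on the log2 scale, and the call was lost without control pool 2 (adjusted p = 0.109) and without exposed pool 1 (adjusted p = 0.201). Since *Sik1* passed the filter on low counts through the exposed pools, where it was high, it was also fitted without a filter (3.58, adjusted p = 0.0133) and with filterByExpr (3.58, adjusted p = 0.0789), and was called in both. Within each condition, the order of the pools by *Sik1* was also their order by the summed sustentacular markers given above, whose own totals did not separate the conditions. The same held for the summed myeloid markers, whose totals did not separate the conditions either, although 3 of the 4 tested did.

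Within the SIK family, *Sik3* held most of the level in control pools and *Sik1* most of it in exposed pools. Of the summed TPM of the 3 SIK genes, *Sik1* made up 20.4, 16.7 and 27.6% across control pools 1 to 3, against 90.1 and 78.1% for exposed pools 1 and 3, and the conditions did not overlap. This difference in shares was not tested. *Sik3* made up 79.3, 82.3 and 71.2% across control pools 1 to 3, against 7.34 and 16.2% for exposed pools 1 and 3. The summed level itself was 25.1, 29.7 and 6.36 TPM across control pools 1 to 3, against 59.7 and 37.5 TPM for exposed pools 1 and 3, lowest in control pool 3. *Sik3* had 2509, 3103 and 563 counts across control pools 1 to 3, against 589 and 748 counts for exposed pools 1 and 3, so that control pool 3 stood with the exposed pools and apart from the other control pools. *Sik3* was not called and differed by -1.48 ± 0.70 SE on the log2 scale (adjusted p = 0.315). *Sik2* was called higher from few reads, 7, 40 and 10 counts across control pools 1 to 3, against 212 and 273 counts for exposed pools 1 and 3. *Sik2* differed by 3.84 ± 0.85 SE on the log2 scale (adjusted p = 0.0731), was under 3 TPM in each pool, and kept its call with a pool left out only in the fit without control pool 2. It passed the filter on low counts in exposed pools alone, and its call was lost without a filter (adjusted p = 0.257) and with filterByExpr (adjusted p = 0.215).

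**Figure D3:**
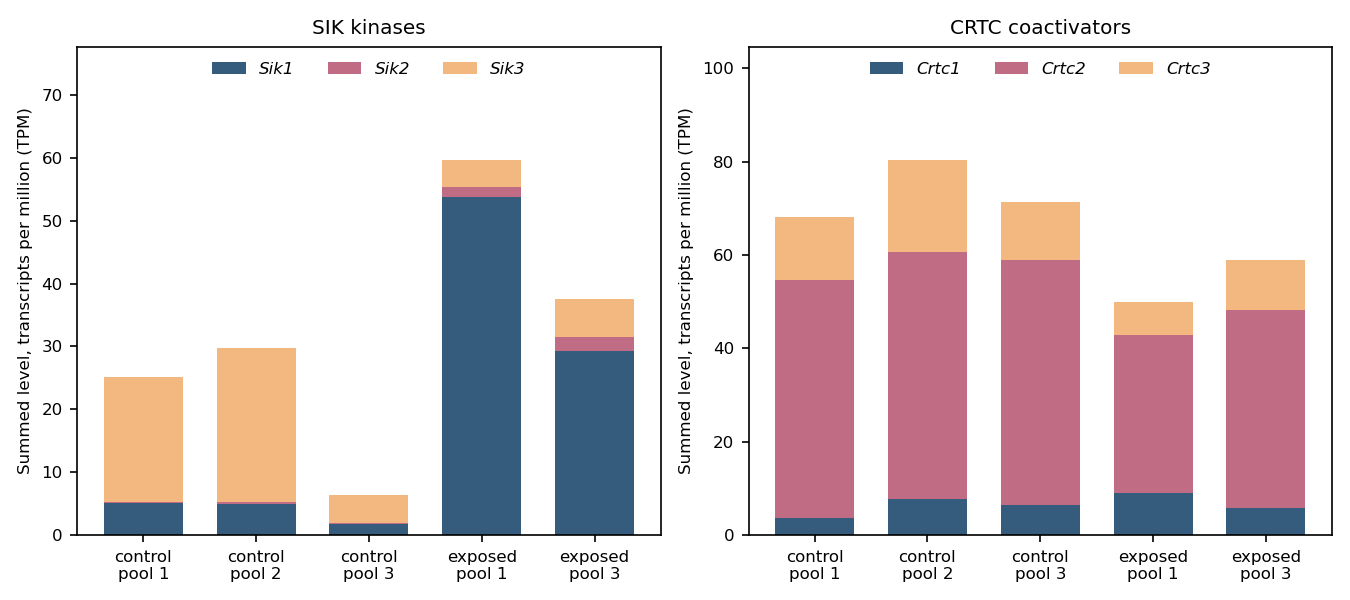
Level in TPM of the 3 SIK genes (left) and the 3 CRTC genes (right) in each pool, stacked from 0. *Sik1* fills most of the bar in both exposed pools (90.1% and 78.1%) and 16.7% to 27.6% of it in control pools, while *Crtc2* remains the largest part of the CRTC bar in all 5 pools.

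The 3 tested genes whose profile was most like that of *Sik1*, by the Euclidean distance between log2 CPM centred on their mean over the 5 pools, were *Socs3* (distance 0.723), *CT010496.1* (1.10) and *Dhrs3* (1.20), where the median distance to all tested genes was 4.33. *Socs3* had 313, 192 and 84 counts across control pools 1 to 3, against 2280 and 1939 counts for exposed pools 1 and 3. *Dhrs3* had 282, 148 and 141 counts across control pools 1 to 3, against 1823 and 1136 counts for exposed pools 1 and 3. All 3 resembled *Sik1* in that control pools 2 and 3 were below control pool 1 and exposed pool 3 was below exposed pool 1.

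Ratios between related members were compared within each pool, on TPM, so that they do not depend on library size. Of 6 pairs, 5 had a ratio in every pool, since *Crem* was at 0 in control pool 2. The ratio of *Crtc1* to *Crtc2* had a log2 of -3.20 ± 0.54 (SD, n = 3) in control pools and -2.41 ± 0.69 (n = 2) in exposed pools. That of *Crtc3* to *Crtc2* was -1.80 ± 0.35 and -2.15 ± 0.19, that of *Atf1* to *Creb1* was -1.55 ± 0.20 and -1.21 ± 1.01, and that of *Crebbp* to *Ep300* was 0.82 ± 0.34 and 1.35 ± 0.60. The ratio of *Sik1* to *Sik2* was 5.02 ± 1.36 and 4.44 ± 0.97. For all 5, the larger SD within a condition was of similar size to the difference or above it. Two-sided exact permutation tests gave p from 0.3 to 0.8 (0.667 to 0.8 after Benjamini-Hochberg adjustment over the 5), where 3 against 2 pools can reach no p below 0.1.

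Of 17 further genes of the CREB and ATF families, 13 were tested, 3 were called higher and 0 lower, beside the 3.42% and 1.85% of all genes, and their median log2 fold change was -0.18. The called genes were *Creb3l2*, *Atf2* and *Atf4*. *Creb3l2*, which encodes another factor anchored in the endoplasmic reticulum membrane, had 16.9, 21.1 and 16.1 CPM across control pools 1 to 3, against 71.0 and 98.1 CPM for exposed pools 1 and 3, with no overlap between conditions. *Creb3l2* differed by 2.23 ± 0.27 SE on the log2 scale (adjusted p = 0.00991). *Atf2*, which encodes a factor activated by stress kinases, had 101, 106 and 76.5 CPM across control pools 1 to 3, against 275 and 185 CPM for exposed pools 1 and 3. *Atf2* differed by 1.29 ± 0.23 SE on the log2 scale (adjusted p = 0.040), and its call was lost without control pool 2 or exposed pool 1. *Atf4*, the effector of the integrated stress response and the most abundant gene of the list, had 234, 207 and 229 CPM across control pools 1 to 3, against 370.4 and 309 CPM for exposed pools 1 and 3. *Atf4* differed by 0.61 ± 0.15 SE on the log2 scale (adjusted p = 0.0959), and its call was lost without each of the 5 pools in turn. Neither *Atf2* nor *Atf4* overlapped between conditions. Without control pool 2, or without exposed pool 1, 1 gene of the list was called higher. With ERCC scaling, none of the 3 was called, with *Creb3l2* at 2.04 (adjusted p = 0.275). Among the tested *Creb3* genes, *Creb3l2* was 4.69-fold higher, whereas *Creb3* (1.06-fold higher) and *Creb3l1* (3.68-fold lower) were not called. The other abundant genes of the list were not called, among them *Creb3l1* (log2 fold change -1.88 ± 0.58 SE, adjusted p = 0.166), *Atf5* (-0.18), *Atf6b* (0.11) and *Atf6* (0.37 on the log2 scale). With a pool left out, the difference of *Creb3l1* ranged from -3.04 to -1.26 on the log2 scale. DESeq2 called *Creb3l1*, *Crebzf* and *Jdp2* lower, where it called 7.11% of all genes lower, with both exposed pools of each below all control pools.

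Kinases and phosphatases that act on CREB or CRTC included genes called in both directions, with 4 of 30 tested genes called higher and 3 lower, of 35 listed, where 3.42% and 1.85% of all tested genes were called. Of the 30, 4 passed the filter on low counts through the exposed pools alone, *Sik2* among them, and 3 of the 26 that passed it in control pools were called higher, beside 3.12% of all genes that did. Among the PKA subunits, the regulatory subunit gene *Prkar1a* was higher and the catalytic subunit gene *Prkaca* lower. *Prkar1a* had 687, 726 and 688 CPM across control pools 1 to 3, against 1592 and 1600.0 CPM for exposed pools 1 and 3, and the pools of each condition lay close together. *Prkar1a* differed by 1.19 ± 0.11 SE on the log2 scale (adjusted p = 0.00425). Its call was lost with ERCC scaling (0.97, adjusted p = 0.9996), as were those of all called genes of this list but *Sik2*. That scaling carries the spread of the spike-in shares within a condition, given above. *Prkaca* had 206, 252 and 141 CPM across control pools 1 to 3, against 56.5 and 70.5 CPM for exposed pools 1 and 3. *Prkaca* differed by -1.65 ± 0.28 SE on the log2 scale (adjusted p = 0.0331), and its call was lost without exposed pool 1 (adjusted p = 0.262) or exposed pool 3 (adjusted p = 0.132). Each exposed pool of *Prkaca* was below each control pool. The other catalytic subunit gene, *Prkacb*, differed by 0.18 on the log2 scale and was not called. Summed over the gene pair, catalytic subunits had 383, 506 and 351 TPM across control pools 1 to 3, against 187 and 245 TPM for exposed pools 1 and 3. The 4 regulatory subunit genes summed to 586, 702 and 594 TPM and to 1109 and 1200.2 TPM in the same order, most of it from *Prkar1a* in every pool. *Prkar2a* (log2 fold change -1.48 ± 0.59 SE, adjusted p = 0.254) and *Prkar2b* (log2 fold change -1.35 ± 0.64 SE, adjusted p = 0.307) were fitted below 0 and not called. The median over the 3 tested regulatory subunit genes was -1.35, the value of *Prkar2b*. With a pool left out, the difference of *Prkar2b* ranged from -2.70 to -0.68 on the log2 scale. Of the PKA inhibitor genes, *Pkib* was called higher (log2 fold change 0.63 ± 0.13 SE, adjusted p = 0.0648) and kept its call only without control pool 1, and the more abundant *Pkia* was not called (-0.02 on the log2 scale). With a pool left out, 1 to 3 genes of the whole list were called higher and 0 to 5 lower, with 2 and 1 without control pool 2, 5 lower without control pool 3, 1 and 0 without exposed pool 1, and 1 and 0 without exposed pool 3, where calls over all genes moved in these fits too, as given above.

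Calcineurin, the calcium-dependent phosphatase that acts on CRTC proteins, had 4 subunit genes listed, all tested and all with both exposed pools below every control pool, where this was so for 19.6% of all genes. Of these 4, *Ppp3ca* (log2 fold change -1.95 ± 0.35 SE, adjusted p = 0.0408) and *Ppp3r1* (log2 fold change -0.86 ± 0.21 SE, adjusted p = 0.0906) were called lower. *Ppp3ca*, which encodes a catalytic subunit, had 146, 151 and 72.7 CPM across control pools 1 to 3, against 31.8 and 32.1 CPM for exposed pools 1 and 3. *Ppp3r1*, which encodes the regulatory subunit, had 100.5, 119.8 and 139 CPM across control pools 1 to 3, against 65.1 and 66.7 CPM for exposed pools 1 and 3. Both calls were lost without control pool 2, exposed pool 1 or exposed pool 3, and that of *Ppp3r1* also without control pool 3. *Ppp1cb*, one of the catalytic subunit genes of the phosphatase that acts on CREB, was called higher (log2 fold change 0.73 ± 0.16 SE, adjusted p = 0.0665), a call also lost without those 3 pools, and the more abundant *Ppp1ca* was not called (-0.07 on the log2 scale). None of the 8 tested CaM kinase genes and none of the 4 tested MAP and RSK kinase genes was called, with *Camk2d*, the most abundant of the former, at 0.07 on the log2 scale.

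Among 18 partners of CBP and p300, a list that includes *Crebbp* and *Ep300* themselves, 13 were tested, 2 were called higher and 0 lower, where 3.42% and 1.85% of all tested genes were, with a median log2 fold change of 0.09. Both calls were lost with ERCC scaling. *Hdac5*, which encodes a class II deacetylase that is exported from the nucleus upon phosphorylation, had 95.3, 87.4 and 79.0 CPM across control pools 1 to 3, against 245 and 209 CPM for exposed pools 1 and 3. *Hdac5* differed by 1.38 ± 0.17 SE on the log2 scale (adjusted p = 0.0102), and lost its call without exposed pool 1 alone (adjusted p = 0.123). *Kat2b*, which encodes the acetyltransferase PCAF, had 30.4, 33.9 and 40.8 CPM across control pools 1 to 3, against 73.4 and 93.0 CPM for exposed pools 1 and 3. *Kat2b* differed by 1.25 ± 0.24 SE on the log2 scale (adjusted p = 0.0497), and its call was lost without control pool 2, exposed pool 1 or exposed pool 3. Conditions did not overlap for either gene. *Hdac2*, *Kat2a* and *Ncoa2* were not called, and neither was the coactivator gene *Ncoa1* (log2 fold change -2.04 ± 0.68 SE, adjusted p = 0.188), whose control pools ranged from 3944 to 18136 counts.

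**Figure D4:**
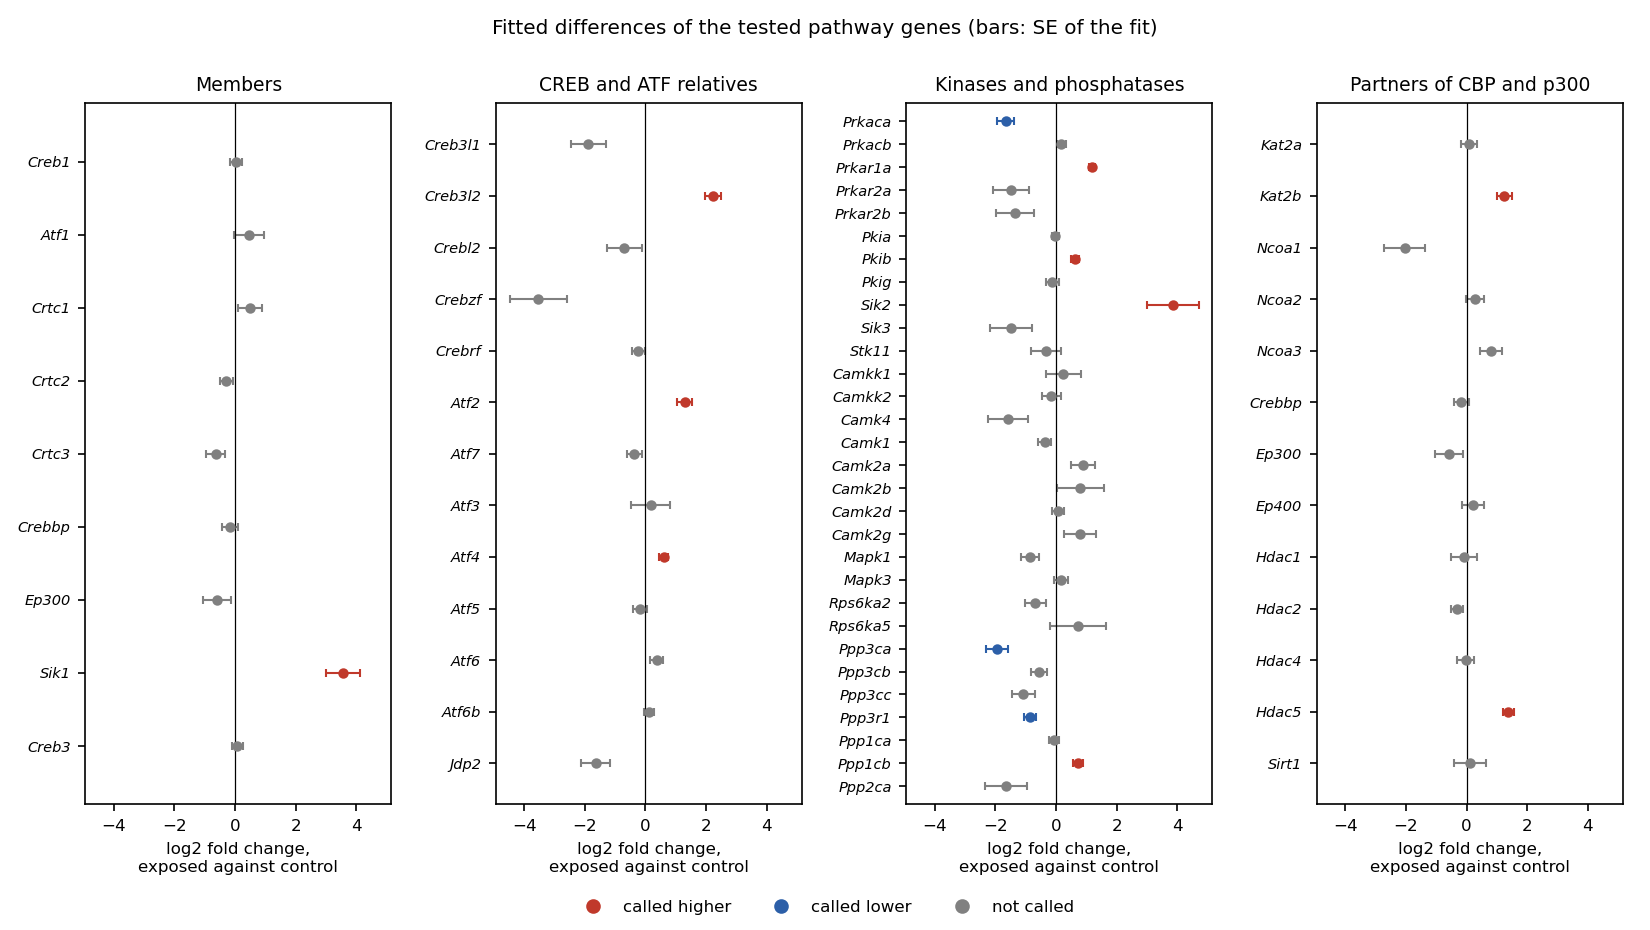
Log2 fold change of exposed against control pools for the tested members and the tested genes of the 3 lists related to them, with bars for the SE of the fit. Red marks genes called higher, blue genes called lower and grey genes not called, and *Sik1* is the only coloured gene among the members.

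Genes known as CREB targets in other cells included 8 that were called higher in exposed pools and 0 that were called lower. Of 37 such genes, 24 were tested, so that the calls stand beside 3.42% higher and 1.85% lower of all genes, and the median log2 fold change was 1.16. Of these 24, 7 passed the filter on low counts through the exposed pools alone, where low counts in control pools favour a difference, and they include 3 of the 8 called, *Sik1*, *Dusp4* and *Vgf*. Among the 17 that passed it in control pools, 5 were called higher, beside 3.12% of all genes that did, and the median was 0.73. Both exposed pools lay above all control pools for 16 of the 24 and below them for 1, beside 20.3% and 19.6% of all genes, and DESeq2 called 12 higher and 0 lower, beside 6.67% and 7.11% of all genes. Without exposed pool 1, 2 genes of the list were called higher, and 5 were without control pool 2 and without exposed pool 3, fits in which 93, 160 and 109 of all genes were called higher. *Sik1* is one of these 8, and the others code for the nuclear receptor *Nr4a1*, the factors *Egr1* and *Junb*, the clock protein *Per1*, the phosphatases *Dusp4* and *Dusp14*, and the neuropeptide precursor *Vgf*. *Nr4a1* had 69.9, 61.2 and 92.9 CPM across control pools 1 to 3, against 1776 and 1308 CPM for exposed pools 1 and 3, and kept its call in all 5 fits with a pool left out. *Nr4a1* differed by 4.37 ± 0.23 SE on the log2 scale (adjusted p = 9.61e-04). *Dusp4* had 24, 122 and 115 counts across control pools 1 to 3, against 4567 and 5014 counts for exposed pools 1 and 3. *Dusp4* differed by 5.94 ± 0.65 SE on the log2 scale (adjusted p = 0.00991). *Vgf* had 0, 13 and 0 counts across control pools 1 to 3, against 1442 and 476 counts for exposed pools 1 and 3, so that its fitted difference of 7.92 on the log2 scale rests on 13 counts in the control condition (adjusted p = 0.0561). These 3 genes had no overlap between conditions. *Dusp4* also kept its call with each pool left out, and *Vgf* lost it without control pool 1, exposed pool 1 or exposed pool 3, without a filter (adjusted p = 0.180) and with filterByExpr (adjusted p = 0.146). DESeq2 with apeglm shrank the difference of *Vgf* to 0.073 on the log2 scale, which is not a call. With ERCC scaling, *Sik1*, *Nr4a1*, *Dusp4* and *Vgf* kept their calls and the other 4 lost them.

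*Per1* had 9.50, 7.89 and 12.5 CPM across control pools 1 to 3, against 55.3 and 43.2 CPM for exposed pools 1 and 3. *Per1* differed by 2.31 ± 0.32 SE on the log2 scale (adjusted p = 0.0168). Each exposed pool of *Per1* was above each control pool. *Egr1*, an immediate early gene, had 170.3, 113 and 118 CPM across control pools 1 to 3, against 484 and 265 CPM for exposed pools 1 and 3. *Egr1* differed by 1.49 ± 0.30 SE on the log2 scale (adjusted p = 0.0578). The highest control pool of *Egr1*, pool 1, lay below both exposed pools. *Junb*, a partner in AP-1, had 89.0, 41.4 and 87.4 CPM across control pools 1 to 3, against 266 and 190.4 CPM for exposed pools 1 and 3. *Junb* differed by 1.65 ± 0.35 SE on the log2 scale (adjusted p = 0.0724). All 3 were highest in exposed pool 1, as *Sik1* was, and lost their calls without it, *Egr1* also without control pool 2 and *Junb* also without control pool 1 or exposed pool 3. *Dusp14*, the most abundant gene of the list, differed least of those called (log2 fold change 0.73 ± 0.18 SE, adjusted p = 0.0949) and kept its call only without control pool 1. Abundant genes of the list that were not called were *Fos* (log2 fold change 0.90 ± 0.23 SE, adjusted p = 0.109), *Ier2* (0.39 on the log2 scale), *Nptx2* (0.38) and *Jun* (log2 fold change -0.52 ± 0.15 SE, adjusted p = 0.141), and *Jun* was the only tested gene of the list with both exposed pools below all control pools. Of the 13 genes that were not tested, 4 had 3 counts or fewer in each of the 5 pools, and *Crh* and *Penk* were at 0 in all 5. Several of these genes are also transcribed by myeloid and support cells, whose markers are given above, *Fcer1g*, *Ptprc* and *Tyrobp* being higher in both exposed pools than in all control pools, and their part in these counts was not tested.

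**Figure D5:**
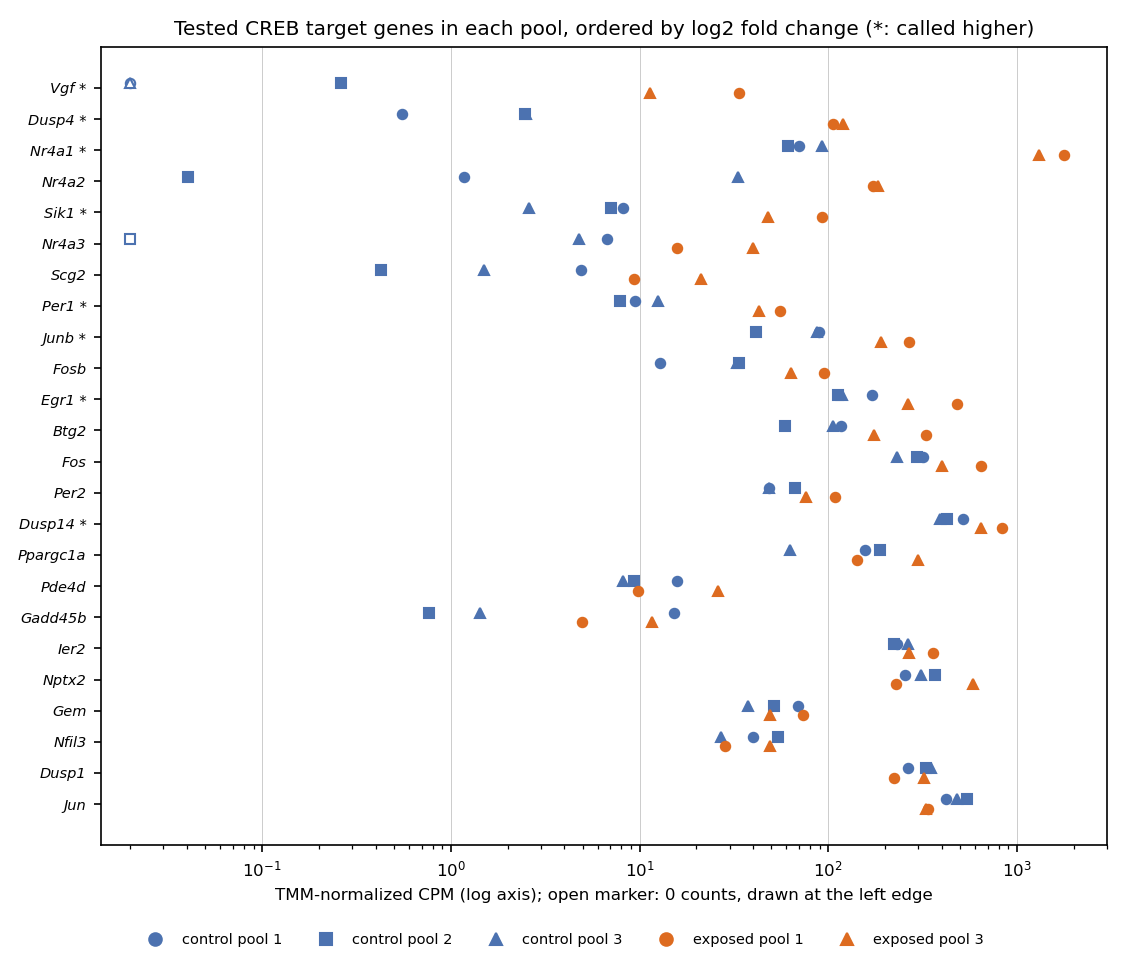
TMM-normalized CPM on a log axis of the 24 tested CREB target genes in the 3 control pools (blue) and the 2 exposed pools (orange), ordered by log2 fold change with the largest at the top, and with an asterisk at each of the 8 genes called higher. Open markers at the left edge are pools with 0 counts, and for 16 of the 24 genes both orange markers lie to the right of all blue ones.

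The cAMP response element and its short form, described above for *Atf1*, were then set beside the differences of all tested genes that have a promoter window. Of 7887 such genes, 327 held the full element in at least 1 window, and 12 of them (3.67%) were called higher and 3 (0.917%) lower. A short form, full elements included, was present for 3056 genes, with 122 (3.99%) called higher and 36 (1.18%) lower, and absent for 4831 genes, with 143 (2.96%) and 100 (2.07%). The median log2 fold change was 0.05, 0.03 and -0.06 in these groups, beside 3.36% called higher, 1.72% called lower and a median of -0.03 over all 7887 genes. Without control pool 3, 16 genes with the full element were called lower, and 6 without control pool 2, 4 without exposed pool 1 and 5 without exposed pool 3 were called higher. Of genes with a short form, 121 were called higher and 127 lower without control pool 3, 58 and 13 without control pool 2, 31 and 4 without exposed pool 1, and 40 and 14 without exposed pool 3. These counts stand beside those of all tested genes in the same fits, which were 348 higher and 429 lower without control pool 3, 160 and 64 without control pool 2, 93 and 19 without exposed pool 1, and 109 and 78 without exposed pool 3. The counts of all tested genes include genes without a promoter window, which were not set apart in these refits, so that shares cannot be compared. With DESeq2 and apeglm over all 5 pools, 32 genes with the full element were called higher and 24 lower, beside 525 and 553 of all 7887. The DESeq2 counts were 235 and 199 with a short form, and 290 and 354 without one. A match of letters is a description and does not show that a factor binds there. Among the called genes of the pathway lists, short forms stood in windows of *Prkaca* and *Ppp3r1*, which were called lower. They also stood in windows of genes called higher, such as *Creb3l2*, *Hdac5* and *Per1*. Of these called genes, *Prkar1a* held the full element, in the windows of 2 of its starts, the downstream one of which has its first base 49 bases before the start. *Nr4a1* held 4 short forms, all on the other strand, at 233, 213, 69 and 40 bases before the start, and *Sik2* held one on each strand next to its start. These 3 windows are shown because each belongs to a called gene of the pathway and together they hold the element in both its forms: *Prkar1a* at chr11:109650699-109650998, plus strand, *Nr4a1* at chr15:101266596-101266895, plus strand, and *Sik2* at chr9:51009024-51009323, minus strand, with full elements and short forms in capitals:
Prkar1a: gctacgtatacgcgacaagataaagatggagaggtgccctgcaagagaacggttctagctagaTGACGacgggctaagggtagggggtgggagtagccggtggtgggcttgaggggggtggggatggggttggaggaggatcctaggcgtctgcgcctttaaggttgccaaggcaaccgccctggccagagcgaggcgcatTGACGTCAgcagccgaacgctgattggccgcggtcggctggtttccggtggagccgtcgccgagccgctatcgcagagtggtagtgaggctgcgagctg
Nr4a1: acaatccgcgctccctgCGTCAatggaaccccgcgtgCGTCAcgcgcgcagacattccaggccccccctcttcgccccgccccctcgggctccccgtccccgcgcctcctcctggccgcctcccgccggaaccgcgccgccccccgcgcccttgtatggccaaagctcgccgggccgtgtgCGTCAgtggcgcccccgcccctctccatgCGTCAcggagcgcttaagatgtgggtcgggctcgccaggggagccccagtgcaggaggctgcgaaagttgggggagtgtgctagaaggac
Sik2: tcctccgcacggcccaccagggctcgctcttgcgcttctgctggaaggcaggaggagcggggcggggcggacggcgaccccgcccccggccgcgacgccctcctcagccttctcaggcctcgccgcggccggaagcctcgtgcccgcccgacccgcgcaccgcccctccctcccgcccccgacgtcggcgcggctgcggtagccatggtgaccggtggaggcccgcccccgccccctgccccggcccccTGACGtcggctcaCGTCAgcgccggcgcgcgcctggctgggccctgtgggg

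Of the 12 genes with a full element that were called higher, the 5 with the largest differences were *Pcsk1* (log2 fold change 3.80 ± 0.83 SE, adjusted p = 0.0800, called in 2 of 5 fits with a pool left out), *Nfkbid* (2.52), *Rcan1* (2.47), *Inpp4a* (1.80) and *Syn1* (1.78 on the log2 scale). With a pool left out, *Nfkbid* was called in 2 of 5 fits, with a difference as low as 1.47, *Inpp4a* in 3 and *Syn1* in 5. *Pcsk1* passed the filter on low counts in exposed pools alone, and its call was lost without a filter (adjusted p = 0.359). With a pool left out, the difference of *Pcsk1* ranged from 3.35 to 4.93 on the log2 scale. *Rcan1*, which encodes an inhibitor of calcineurin, had 47.4, 42.3 and 41.8 CPM across control pools 1 to 3, against 295 and 191 CPM for exposed pools 1 and 3, and was called in all 5 fits with a pool left out. *Rcan1* differed by 2.47 ± 0.22 SE on the log2 scale (adjusted p = 0.00401). *Pcsk1*, which encodes a protease that cuts neuropeptide precursors, had 25.4, 8.30 and 2.83 CPM across control pools 1 to 3, against 176 and 163 CPM for exposed pools 1 and 3. *Syn1*, which encodes a protein of synaptic vesicles, had 105, 126 and 152 CPM across control pools 1 to 3, against 382 and 491 CPM for exposed pools 1 and 3. The 3 genes called lower were *Dusp8* (log2 fold change -1.81 ± 0.23 SE, adjusted p = 0.0129), *Ormdl3* (-1.39) and *Abhd16a* (-0.58 on the log2 scale), called in 3, 5 and 2 of 5 fits with a pool left out, and the window of *Dusp8* held 2 full elements. The full element thus stood in windows of genes that were higher and of genes that were lower, of which *Rcan1* (the start at chr16:92400029-92400328, minus strand) and *Dusp8* (chr7:142095235-142095534, minus strand) are shown with the elements in capitals:
Rcan1: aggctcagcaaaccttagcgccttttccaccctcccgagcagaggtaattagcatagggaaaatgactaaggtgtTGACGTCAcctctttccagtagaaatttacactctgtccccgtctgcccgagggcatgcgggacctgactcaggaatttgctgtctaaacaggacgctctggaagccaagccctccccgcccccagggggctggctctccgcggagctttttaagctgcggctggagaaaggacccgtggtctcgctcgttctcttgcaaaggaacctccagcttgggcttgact
Dusp8: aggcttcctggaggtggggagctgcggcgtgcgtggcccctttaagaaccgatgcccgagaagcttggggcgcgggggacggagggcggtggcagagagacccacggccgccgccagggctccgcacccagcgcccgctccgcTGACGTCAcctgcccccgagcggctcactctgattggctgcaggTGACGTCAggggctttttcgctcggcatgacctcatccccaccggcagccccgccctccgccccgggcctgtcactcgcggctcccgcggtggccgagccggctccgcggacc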

How the data were processed

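Polyadenylated RNA of sorted *Olfr151* neurons was amplified by SMARTer chemistry (12 PCR cycles) and sequenced as 50-base single reads. These were aligned by the authors to GRCm38 with STAR 2.7.0, together with the IRES-tau-GFP and ERCC sequences, and the authors deposited whole-number counts made with featureCounts 1.6.3 on Ensembl release 99 with an updated odorant receptor annotation. Per the file headers, reads were counted on exons without strand, and multi-mapping reads and reads on several genes were left out. The deposited exon lengths were used for TPM. Read counts without molecular identifiers are not independent molecules, and the limit given for a count of 0 (3 counts) covers counting error only. The authors used DESeq2 1.30.1 for their own tests, whose results were not used here.

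The test was edgeR 4.0.16 in R 4.3.3 (glmQLFit with robust estimation, glmQLFTest, TMM factors), fitted over all 5 libraries with condition as the only factor. The SE given with a log2 fold change was derived from this test, as the absolute log2 fold change divided by the square root of the F statistic. Tested genes had at least 140 counts in every library of 1 condition, the lowest point of the log2 count density below the mode of expressed genes. Calls required a Benjamini-Hochberg adjusted p under 0.1 over the 10055 tested genes and an absolute log2 fold change above 0.5. Alternatives were DESeq2 1.42.0 with apeglm 1.24.0, DESeq2 size factors, ERCC scaling, no filter, filterByExpr, an adjusted p under 0.05, no robust estimation, the pool number as a block, and leaving out each pool. Ratios were tested in scipy 1.17.1.

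Genes were named through GENCODE M21 (55144 of 55411), and promoter windows came from RefSeq. The members and the gene lists were chosen with earlier results of these data known. Genes named are the members, the called genes of each list and up to 4 more with the highest mean TPM, the 3 genes most like each called member, and of genes with a full element the 5 called with the largest difference in each direction without overlap. *Crebzf*, *Jdp2*, *Sik3*, *Prkar2a*, *Prkar2b*, *Csf1r*, *Crh*, *Penk* and the markers given at 0 counts fall outside this rule and were named after their values were seen. The labels name 3 consecutive days without assigning pools to them. Whether pools of one condition came from separate days is thus not known, and p-values measure the spread between these pools.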

Additional observations from a re-analysis of the deposited data

How the results depend on the processing

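The differences of the 9 tested members kept their direction and their side of the threshold in 108 of 117 refits. The call of *Sik1* was lost without control pool 2 and without exposed pool 1, so that 0 to 1 members were called higher with a pool left out. With ERCC scaling, *Creb1* turned to -0.16 and *Creb3* to -0.093 on the log2 scale. With a pool left out, *Creb1* ranged from -0.15 (without exposed pool 3, and -0.0025 without control pool 1) to 0.19, *Atf1* from -0.19 (without exposed pool 1) to 0.89, and *Crebbp* from -0.48 to 0.057 (without exposed pool 1). None of these was past the threshold before or after. Other called genes of the lists kept their calls in 142 of 247 refits and lost them in 105, with none turning direction. The cause of these changes was not tested.

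Over all 10055 genes, DESeq2 with apeglm called 671 higher and 715 lower, against 344 and 186. ERCC scaling called 94 and 49, filterByExpr (15544 genes) 162 and 74, an adjusted p under 0.05 190 and 90, and no filter (26884 genes) 290 and 131. DESeq2 called 3 CREB and ATF relatives and 7 kinases and phosphatases lower, of the genes with a full element 32 higher and 24 lower, and of those with a short form 235 and 199. With ERCC scaling, 0 relatives were called higher and 1 lower, 1 kinase or phosphatase higher and 0 lower, 0 partners higher, 4 full-element genes higher and 1 lower, and 25 short-form genes higher and 15 lower. With filterByExpr, 1 relative, 1 kinase or phosphatase, 1 partner, 4 targets, 6 full-element and 60 short-form genes were called higher, and 0 kinases or phosphatases and 13 short-form genes lower. At an adjusted p under 0.05, 1 kinase or phosphatase, 4 targets, 5 full-element and 70 short-form genes were higher and 16 short-form genes lower, and without a filter 22 short-form genes were lower. DESeq2's size factors and no robust estimation moved no count of calls by more than 1.5 times.

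With each pool left out in turn, 93 to 348 of all tested genes were called higher and 19 to 429 lower, and 1 to 2 relatives were called higher and 0 to 1 lower, 1 to 3 kinases and phosphatases higher and 0 to 5 lower, 0 to 2 partners higher and 0 to 2 lower, 2 to 8 targets higher and 0 to 1 lower, 4 to 12 full-element genes higher and 1 to 16 lower, and 31 to 121 short-form genes higher and 4 to 127 lower. The exposed minus control difference in log2 ratio ranged from -0.37 (without exposed pool 1) to 1.06 for *Atf1* to *Creb1*, and from -1.26 to 0.20 for *Sik1* to *Sik2*, which turned above 0 without control pool 1 (0.20) and without exposed pool 3 (0.11). It ranged from 0.30 to 1.28 for *Crtc1* to *Crtc2*, from 0.11 to 0.95 for *Crebbp* to *Ep300*, each lowest without exposed pool 1, and from -0.49 to -0.16 (without control pool 2) for *Crtc3* to *Crtc2*. With 1 count added, *Crem* to *Creb1* differed by 0.96. On CPM in place of TPM, *Creb3* made up 19.8% of the summed level in control and 18.9% in exposed pools.

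With the pool number as a replicate block, 11 genes were called higher and 0 lower, with 0 members, 0 relatives, 0 kinases and phosphatases in either direction, 0 partners, 0 targets, 0 full-element genes in either direction, and 3 short-form genes higher and 0 lower. *Sik1* then differed by 3.85 on the log2 scale (adjusted p = 0.131). This fit gives each pool number its own term, and control pool 2 has no exposed partner. Little is thus left to estimate the spread, and a call lost in this fit cannot be read as an absent difference. Deviations from the condition mean correlated at 0.03 for the pools numbered 1 and at -0.07 for those numbered 3. As the deviations of 2 pools mirror each other, these correlations are a weak check. The pools numbered 1 had the highest ERCC shares of the 5, 0.631% in control pool 1 and 0.542% in exposed pool 1, against 0.249% to 0.332% in the other pools. They also had the highest sustentacular and myeloid totals of their conditions. Whether pools of one number shared a day is not known, and these values do not settle it. With 2 exposed pools, the spread of that condition is 1 difference per gene.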
